A study of Sus scrofa with 81 samples.

Results

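MSS51 (NCBI gene 100156215) and TEX9 (NCBI gene 100155694) were followed through the development of pig skeletal muscle, in which both RNAs were highest from about 4 months after birth. They are 2 genes of 28061 in the table, and they were chosen by their FPKM values after birth, which were higher in the late than in the early postnatal stages of these same libraries. Their postnatal course is therefore given as a description, with no test, and tests are given only for the stages before birth and around it.

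MSS51 is named after a protein of Saccharomyces cerevisiae that activates translation of the mitochondrial mRNA for a core subunit of cytochrome oxidase. In mouse, its mammalian homologue, a protein with a MYND zinc finger, is enriched in skeletal muscle, is more abundant in fast glycolytic than in slow oxidative fibres, and is lowered when myostatin signalling is blocked. TEX9 carries a name given for its expression in testis, and its role in muscle is not described here. Muscle fibres are told apart by their myosin heavy chains, of which MYH7 marks slow fibres and MYH2, MYH1 and MYH4 mark fast fibres of increasing contraction speed.

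The series holds 81 libraries of bulk skeletal muscle RNA from pigs of 1 breed, spelled Landrance in the labels, with 3 libraries at each of 27 stages. The stage names were read as days of gestation (E) and days after birth (D). The 15 prenatal stages (E33 to E105) hold 45 libraries and the 12 postnatal stages (D0 to D180) hold 36. No treatment or genotype separates the groups. The labels name no muscle, sex, litter or batch and give no count of animals per stage, so p-values measure only the spread between libraries, which may be technical. With no muscle named, a change of muscle between stages and a change with age cannot be told apart. The early fetal group joined E33, E40 and E45, the late fetal group E95, E100 and E105, the early postnatal group D20, D30 and D40, and the late postnatal group D140, D160 and D180, with 9 libraries each.

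Levels are FPKM (fragments per kilobase, scaled to the mapped fragments of the library), a unit per length, and differences are on the scale of log2(FPKM + 1), which understates the change of a gene near or below 1 FPKM. FPKM are shares of a library, and their sum per library lay between 320339 and 452249. The median gene tested moved by -0.19 (log2) from early to late fetal stages, by -0.20 from E105 to D0, by -0.38 from E105 to D9 and by -0.05 from early to late postnatal stages. In bulk RNA, a change in the number of cells of a type and a change of RNA per cell cannot be told apart. Low values could not be turned into read numbers and depth is unknown, so no detection limit is given for values listed at 0. Among 15 housekeeping genes, 0 were listed at 0 in any library.

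MSS51 was near the bottom of the scale throughout gestation. Its level lay between 0 and 0.513 FPKM in the 45 prenatal libraries, with a median of 0.0120 FPKM. It was listed at 0 in 22 of them, and 0 prenatal libraries reached 1 FPKM. The highest prenatal stage mean was that of E65, 0.306 ± 0.193 FPKM (SD, n = 3). At D0 the 3 libraries held 0.104, 0.104 and 0 FPKM, within the prenatal range.

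MSS51 was first above every prenatal library at D9, where the libraries held 0.823, 0.776 and 1.48 FPKM. All 33 libraries from D9 to D180 lay above the highest prenatal one. At D20 they held 0.624, 2.12 and 6.57 FPKM, at D30 0.686, 1.74 and 0.657 FPKM, and at D40 7.17, 1.66 and 1.54 FPKM. From D20 to D40 the libraries of a stage already differed widely, and at D20 and D40 1 library stood several times above the lowest. At D60 the values were 12.5, 13.6 and 0.655 FPKM, at D80 5.70, 40.5 and 18.0 FPKM, and at D100 2.02, 8.91 and 9.46 FPKM. Here too the libraries of 1 stage spanned low and high levels, and the D60 library at 0.655 FPKM lay below every D30 library.

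The highest MSS51 levels came at the last 4 stages. The 3 libraries held 19.6, 35.1 and 66.1 FPKM at D120 and 11.7, 57.8 and 21.4 FPKM at D140. They held 34.7, 69.2 and 29.2 FPKM at D160 and 28.5, 39.7 and 14.6 FPKM at D180. Ordered by stage mean, D160 (44.4 FPKM) was followed by D120 (40.3), D140 (30.3), D180 (27.6), D80 (21.4), D60 (8.91), D100 (6.79), D40 (3.46), D20 (3.11), D30 (1.03) and D9 (1.03). The ranges of neighbours in this order overlapped from D160 down to D9, and again among the stages below. The exception was the gap between D9 and E65, whose ranges were apart.

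TEX9 differed from MSS51 in being present at every stage. It was at 1 FPKM or more in all 81 libraries, and its prenatal libraries lay between 4.205 and 9.17 FPKM with a median of 6.20 FPKM. Prenatal stage means ran from 4.37 ± 0.257 FPKM at E50 to 8.14 ± 1.21 FPKM at E85 (SD, n = 3 each). The D0 libraries held 5.57, 4.74 and 8.20 FPKM, within the prenatal range.

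TEX9 passed through a low at D9, where the libraries held 2.53, 3.37 and 2.65 FPKM, the lowest 3 values of the 81. It was back in the prenatal range at D20, with 5.15, 7.19 and 4.67 FPKM, and at D30, with 7.54, 6.25 and 6.76 FPKM. At D40 the libraries held 10.5, 9.71 and 8.41 FPKM and at D60 7.05, 7.98 and 17.7 FPKM. Of these 6 libraries, D60 replicate 3 stood highest, and it was also the D60 library with the lowest MSS51.

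From D80 on, TEX9 lay above every library up to D40 in all 18 libraries. The values were 13.7, 24.3 and 20.1 FPKM at D80 and 34.9, 13.6 and 23.2 FPKM at D100. They were 80.3, 88.9 and 49.8 FPKM at D120, 33.7, 58.1 and 25.5 FPKM at D140, 38.8, 28.7 and 38.7 FPKM at D160 and 69.4, 70.2 and 48.5 FPKM at D180. Ordered by stage mean, D120 (73.0 FPKM) was followed by D180 (62.7), D140 (39.1), D160 (35.4), D100 (23.9), D80 (19.4), D60 (10.9) and D40 (9.55), then by E85 and the other stages. All neighbours in this order had overlapping ranges except E50 and D9. MSS51 met the same mark in 16 of the 18 libraries from D80 on, those above its highest library up to D40 (7.17 FPKM).

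**Figure D1:**
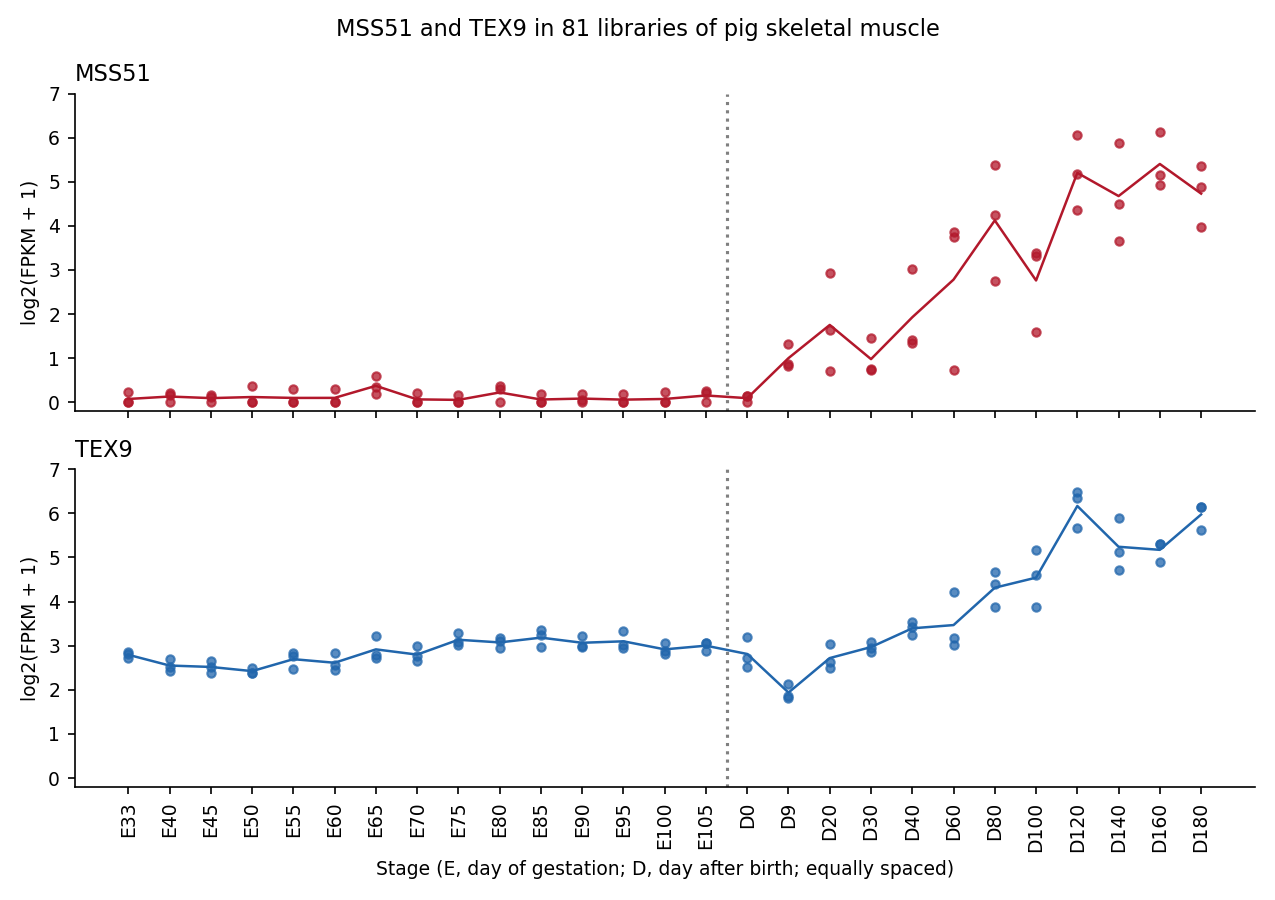
Level of MSS51 (upper panel) and TEX9 (lower panel) as log2(FPKM + 1) at each of 27 stages, equally spaced along the x axis. Points are single libraries (3 a stage), the line joins the stage means, and the dotted line marks birth. MSS51 sits at or below 0.513 FPKM in the 45 prenatal libraries, whereas TEX9 is never under 2.53 FPKM and dips at D9.

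Between the early and late postnatal groups, MSS51 went from 0.624 to 7.17 FPKM (median 1.66) in the early libraries to 11.7 to 69.2 FPKM (median 29.2) in the late ones. The groups did not overlap, and their means were 2.53 ± 2.52 and 34.1 ± 19.1 FPKM (SD, n = 9 each), a ratio of 13.5. TEX9 went from 4.67 to 10.5 FPKM (median 7.19) to 25.5 to 70.2 FPKM (median 38.8). These groups did not overlap either, and the means were 7.36 ± 1.95 and 45.7 ± 16.8 FPKM, a ratio of 6.21. On the log2(FPKM + 1) scale the differences were 3.38 (SE 0.30) for MSS51 and 2.44 (SE 0.14) for TEX9, which ranked 3 and 7 from the top of the 14220 genes tested. This contrast chose both genes. Of all genes tested, 0.788% rose and 1.49% fell in it past the limits used throughout (limma, Benjamini-Hochberg adjusted p below 0.05 and a log2 fold change of at least 1).

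Over all postnatal against all prenatal stages, the log2 difference was 2.83 for MSS51 and 1.21 for TEX9. MSS51 passed the filter on low values (at least 1 FPKM in at least 3 libraries) only through the postnatal stages at which it is high. TEX9 passed it at every stage.

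Before birth, TEX9 changed by tests that compared prenatal stages only, and MSS51 did not pass them. The spread in these tests was estimated over all stages, among them the postnatal stages by which both genes were chosen. An F test over the 15 prenatal stages gave F = 2.20 for TEX9 (limma, adjusted p = 0.0232), where 84.0% of all genes tested passed. For MSS51 it gave F = 0.0523 (limma, adjusted p = 1.0). The variable postnatal libraries of MSS51 dominate the spread in that test and its prenatal values are near 0. The F test therefore cannot tell whether MSS51 changed before birth. The TEX9 libraries lay between 4.23 and 6.20 FPKM (median 5.33) in the early fetal group and between 5.99 and 9.02 FPKM (median 7.15) in the late fetal group. The groups overlapped, though 8 of 9 late libraries were above all early ones.

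TEX9 rose by 0.38 (log2, SE 0.14, limma, adjusted p = 0.00934) from early to late fetal stages, with means of 5.19 ± 0.710 and 7.07 ± 0.891 FPKM (SD, n = 9 each). This is a difference below the fold limit, and 24.4% of all genes tested were higher at that adjusted p alone. With the fold limit, 6.07% were higher and 9.32% lower. The prenatal course of TEX9 was not a steady rise: stage means were 5.94 FPKM at E33, 4.37 at E50, 8.14 at E85 and 6.58 at E100. MSS51 had group means of 0.0752 ± 0.0752 and 0.0734 ± 0.0885 FPKM, and its difference of -0.0035 (SE 0.30, limma, adjusted p = 0.992) was not past the test. The SE of MSS51 comes from a spread estimated over all stages, which its variable postnatal libraries dominate, so it is wide for the fetal stages. With only the compared libraries in the fit, the SE was 0.056 and the difference was again not past the test (limma, adjusted p = 0.957).

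The ratio of MSS51 to TEX9 within a library, as a log2 difference of the FPKM + 1 values, was -2.52 ± 0.241 in the early and -2.91 ± 0.216 in the late fetal group (SD, n = 9 each). The difference of -0.39 was past a two-sided exact permutation test (p = 0.00325), but with a pseudocount of 0.1 in place of 1 the difference was -0.50 with an exact permutation p of 0.218. Both permutations took the libraries as exchangeable, although each group joins 3 stages. Within the early group the stage means were -2.72 at E33, -2.42 at E40 and -2.42 at E45. MSS51 was near 0 in both groups, and its own part of that difference was -0.0035. After D0 the ratio varied widely between the libraries of a stage, from -3.57 in a D100 library to 1.24 in a D160 library. Its stage means were -2.72 ± 0.431 at D0, -0.94 ± 0.373 at D9, -1.99 ± 0.513 at D30, -0.19 ± 0.927 at D80 and 0.23 ± 0.886 at D160 (SD, n = 3 each). MSS51 was above TEX9 in 6 libraries, all of them postnatal.

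Around birth, TEX9 fell at D9 and neither gene passed the test at D0. D0 and D9 lie outside the early and late postnatal groups, but they belong to the postnatal course for which both genes were chosen. MSS51 also passed the filter on low values only through postnatal stages. The tests at D0 and D9 are therefore not free of the choice of the genes. From E105 to D0 the log2 difference was -0.19 (SE 0.24, limma, adjusted p = 0.525) for TEX9 and -0.06 (SE 0.51, adjusted p = 0.937) for MSS51, where 2.78% of all genes tested rose and 9.38% fell. From E105 to D9, TEX9 fell by 1.06 (log2, SE 0.24, limma, adjusted p = 1.1e-04), from 7.02 ± 0.544 to 2.85 ± 0.456 FPKM (SD, n = 3 each). In that comparison 2.14% of all genes tested rose and 7.09% fell, and the median gene moved by -0.38. After median-ratio scaling, which divides a library by its median ratio to a common reference, the TEX9 difference was -0.58 (limma, adjusted p = 0.0912) and the call was lost, and after quantile normalisation it was -0.62 (adjusted p = 0.0247), below the fold limit. Median-ratio scaling also changed the split of called genes from 304 higher and 1008 lower to 724 higher and 174 lower.

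MSS51 was higher at D9 than at E105 by 0.85 (log2, SE 0.51), which was not past the test over all stages (limma, adjusted p = 0.147). The ranges did not overlap, but how many of all genes had ranges apart was not counted. The adjusted p was 0.00216 when only these 6 libraries entered the limma fit, which leaves out the spread of the other stages, and 0.85 is below the fold limit. At an adjusted p below 0.05 alone, 9831 of 14220 genes tested passed in this fit. With a pseudocount of 0.1 the difference was 2.47 (limma, adjusted p = 0.00644). There 8777 genes passed on adjusted p alone and 501 were higher past both limits.

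Over the means of the 12 postnatal stages, MSS51 and TEX9 went together, with Pearson's r = 0.91 and Spearman's rho = 0.88 of log2(FPKM + 1). Without D120 and D180, the stages farthest from the median of TEX9, r was 0.90. Both genes were chosen for the same postnatal course, so this correlation is a description. Within stages the 2 genes did not go together: over the deviations of the 36 libraries from their stage means, r was -0.21. At D60 the library with 17.7 FPKM of TEX9 had 0.655 FPKM of MSS51. At D120 the library with the most MSS51 (66.1 FPKM) had the least TEX9 (49.8 FPKM), and at D140 replicate 2 was highest for both.

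MSS51 varied far more between the libraries of a stage than most genes. Its pooled SD within postnatal stages was 0.968 (log2), larger than that of 99.6% of the genes tested, and that of TEX9 was 0.405, larger than that of 91.9%. The median gene had 0.212. Of the myosins, MYH7 had 1.05 and MYH4 0.803, so both of these varied between the libraries of a stage to about the degree that MSS51 did.

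**Figure D2:**
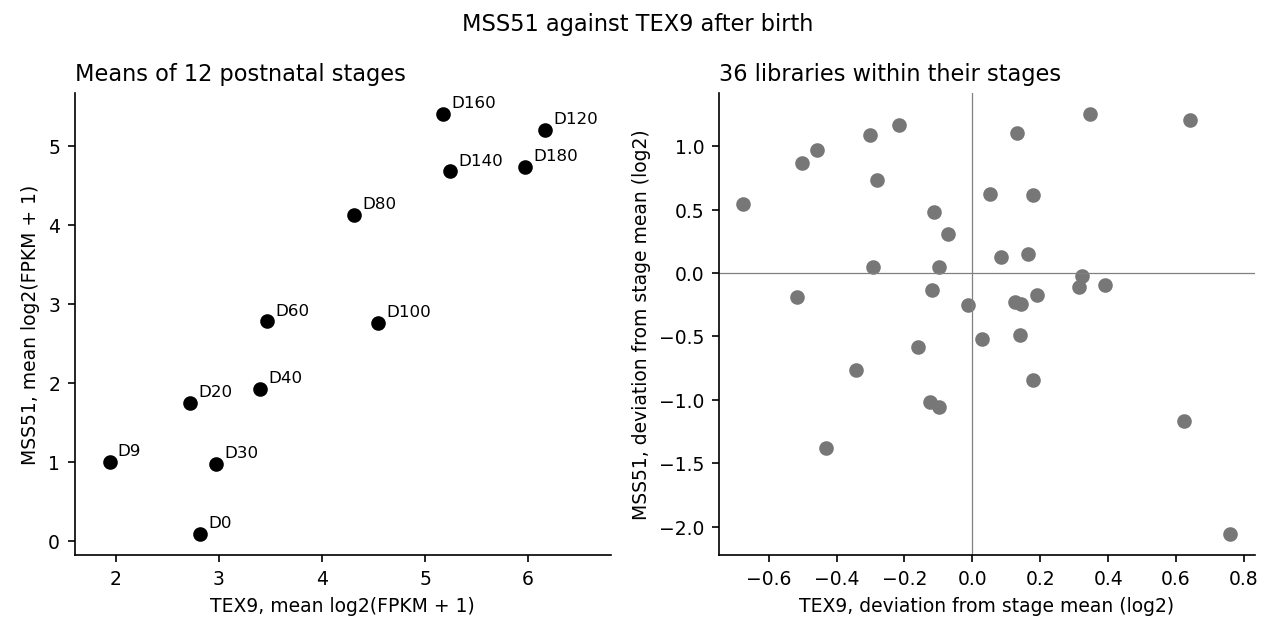
Left, stage means of MSS51 against TEX9 as log2(FPKM + 1) at the 12 postnatal stages (1 point a stage, labelled). Right, the same genes in the 36 postnatal libraries as deviations from their stage means (1 point a library). The stage means lie along a rising band (r = 0.91), and the deviations do not (r = -0.21).

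Among the fast myosins, MYH4, the fastest adult isoform, was the one with a positive r to both members over stage means. Over the 12 postnatal stages r was 0.58 with MSS51 and 0.52 with TEX9. Without the stages farthest from the median, D0 and D180, these were 0.24 and 0.46. The MYH4 libraries lay between 1284 and 5519 FPKM (median 2446) in the early and between 405 and 6079 FPKM (median 4363) in the late postnatal group, which overlapped. MYH4 differed by 0.35 (log2, SE 0.27, limma, adjusted p = 0.298), and by 0.09 to 0.74 when 1 library at a time was left out, the lowest without D160 replicate 3 and the highest without D160 replicate 2.

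MYH1, the intermediate fast isoform, had r = 0.14 with MSS51 and r = -0.16 with TEX9, and both changed with the stages used. Without D9 and D30 they were 0.54 and 0.23, and without D0 the value for MSS51 was -0.05. MYH2, the slowest of the fast isoforms, had r = -0.56 with MSS51 and r = -0.67 with TEX9. Without D9 and D0 these were -0.21 and -0.46. MYH1 and MYH2 differed by 0.28 (log2, SE 0.16, limma, adjusted p = 0.145) and -0.21 (SE 0.23, adjusted p = 0.486) between early and late postnatal stages. With 1 library left out at a time, the MYH2 difference lay between -0.38 (without D160 replicate 2) and -0.10 (without D30 replicate 1).

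MYH7, the slow isoform, ran against both members, with r = -0.59 for MSS51 and -0.71 for TEX9. Without D9 and D20 these were -0.47 and -0.51. Its libraries lay between 635 and 1267 FPKM (median 909) in the early group and between 81.1 and 2232 FPKM (median 465) in the late group, and the groups overlapped. MYH7 fell by 1.27 (log2, SE 0.33, limma, adjusted p = 0.00127). The call was lost with only the compared libraries in the fit (adjusted p = 0.0547), and without D160 replicate 1 the difference was -0.94, below the fold limit.

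Within stages the relations with the myosins were weak. Over the deviations of the 36 libraries from their stage means, r of the members with the 4 myosins lay between -0.19 and 0.22. D160 replicate 2 had the highest MSS51 of all libraries (69.2 FPKM) together with the highest postnatal MYH7 (2232 FPKM) and the lowest MYH4 of the late group (405 FPKM). The other D160 libraries, with 34.7 and 29.2 FPKM of MSS51, had 81.1 and 180 FPKM of MYH7.

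**Figure D3:**
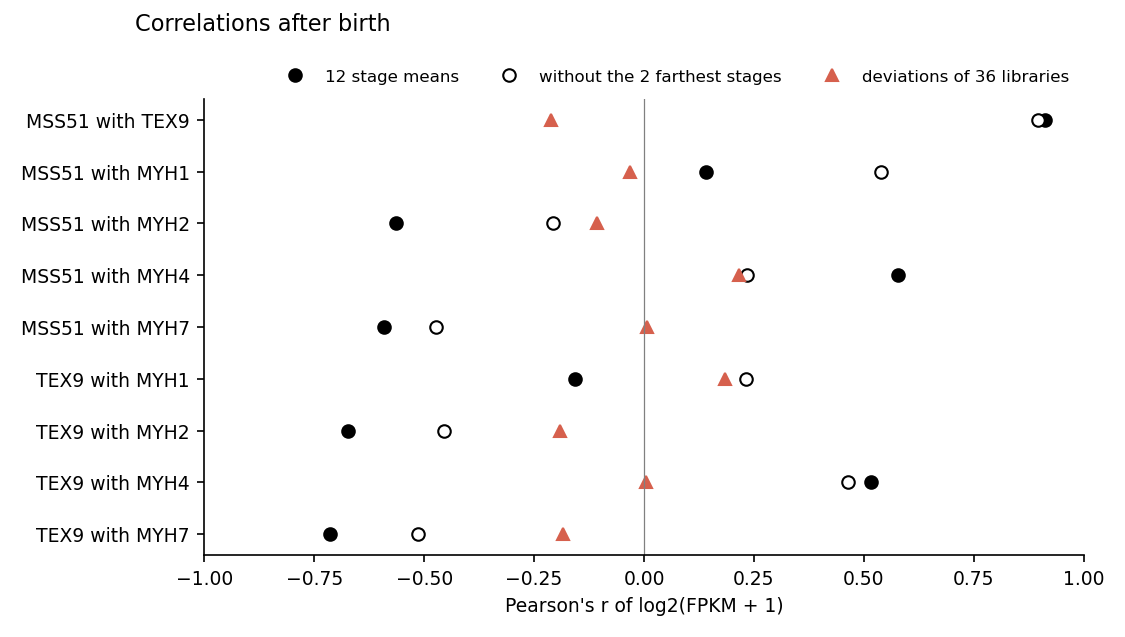
Pearson's r of log2(FPKM + 1) after birth between MSS51 and TEX9 and of each with 4 myosin heavy chain genes. Filled circles use 12 stage means, open circles leave out the 2 stages farthest from the median of the x-axis gene, and triangles use the deviations of 36 libraries from their stage means. MYH2 and MYH7 lie below 0 for both members over stage means, and all triangles lie between -0.21 and 0.22.

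Most slow-fibre genes fell from early to late postnatal stages, and most fast-fibre genes were not called. The gene lists set beside the members were counted, not tested as sets. Of 12 slow-fibre contractile genes, 10 fell and 0 rose, with a median log2 difference of -1.27. Their summed level was 6394 to 11989 FPKM in the early and 1065 to 21208 FPKM in the late libraries, so at least 1 late library lay above every early one. MYOZ2, a Z-disc protein of slow fibres, fell by 2.24 (log2, SE 0.34, limma, adjusted p = 2.5e-07), and CASQ2, the cardiac and slow-fibre calsequestrin, fell by 2.15 (SE 0.15, adjusted p = 1.2e-17). MYL3, the slow essential light chain, fell by 1.67 and TNNC1, the slow troponin C, by 1.36. Of 15 fast-fibre contractile genes, 1 rose and 0 fell, with a median of 0.28. The 1 that rose was PVALB, the calcium buffer parvalbumin of fast fibres, by 1.32 (SE 0.34, limma, adjusted p = 0.00121).

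The lists chosen for what MSS51 is known for held 1 gene that rose, myostatin, and 2 that fell. Of 33 genes of mitochondrial translation and cytochrome oxidase assembly, 0 rose and 0 fell, with a median of -0.01. Of 12 cytochrome oxidase subunits, 0 rose and 2 fell, with a median of -0.58. COX4I1, a nuclear-encoded subunit, fell by 1.11 (SE 0.09), from 440 ± 64.4 to 203 ± 30.3 FPKM (SD, n = 9 each), and was under the fold limit after quantile normalisation (-0.98). COX7A1, the muscle form of another subunit, fell by 1.03 (SE 0.13), from 1287 ± 273 to 634 ± 149 FPKM, and was under the fold limit after median-ratio scaling (-0.96), after quantile normalisation (-0.89) and without D40 replicate 2 (-0.95), D160 replicate 1 (-0.93) or D180 replicate 3 (-0.96). Of the 14 tested genes of the MYND zinc finger family, 0 rose and 0 fell, with a median of 0.09. Of 17 genes of myostatin and TGF-beta signalling, 1 rose and 0 fell, with a median of 0.02. This was MSTN itself, myostatin, the secreted inhibitor of muscle growth, which rose by 1.10 (SE 0.17, limma, adjusted p = 3.1e-07), from 18.0 ± 9.75 to 39.1 ± 14.99 FPKM. The MSTN difference was 0.97 without D160 replicate 1, 0.996 without D140 replicate 2 and 0.94 after quantile normalisation, each under the fold limit.

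Most other genes named for or marking testis and germ cells were too low to be tested. Of 27 other TEX-named genes in the table, 8 were tested, of which 0 rose and 0 fell, with a median of -0.03, and 20 were below 1 FPKM in every postnatal library. Of 15 germ cell markers, 1 was tested and was not called, 2 were at 0 in every postnatal library, and 14 were below 1 FPKM in every one. Their summed level was 0.483 to 0.903 FPKM in the early and 0.494 to 0.745 FPKM in the late postnatal libraries. Of 12 motile cilium markers, 1 was tested and was not called, and of 16 genes of centrioles and centriolar satellites, 0 rose and 0 fell. With 0.788% of all genes rising and 1.49% falling in this comparison, counts of 0 in lists this short are near the background.

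Markers of other cell types moved between the same libraries, and their part in the members' rise was not tested. Of 6 adipocyte markers, 2 rose: PLIN1, the lipid droplet coat protein perilipin, by 1.52 (SE 0.36) and CIDEC, a lipid droplet fusion protein, by 1.33 (SE 0.28). The 8 adipocyte genes in the table summed to 104 to 198 FPKM in the early and 81.8 to 262 FPKM in the late group. Of 7 nerve and Schwann cell markers, 4 fell, among them MBP by 1.59 and PMP22 by 1.17, both genes of myelin, and the summed level went from 59.0 to 137 FPKM to 23.0 to 42.9 FPKM. Of 5 erythroid markers, 2 fell, the globin gene HBB by 1.85 and the haem synthesis gene ALAS2 by 1.34, and the summed level of 6 in the table went from 290 to 2208 FPKM to 145 to 616 FPKM. Of 7 fibroblast and tendon markers, 1 fell, the tendon gene TNMD by 1.15, with a summed level of 1197 to 3798 FPKM early and 1116 to 2302 FPKM late. Leaving out D30 replicate 1, D40 replicate 3 or D180 replicate 1 in turn brought TNMD under the fold limit. Of 7 endothelial and 8 leukocyte markers, 0 were called, with medians of -0.49 and 0.55, though 3 leukocyte markers were called higher with a pseudocount of 0.1 and 1 after quantile normalisation. The summed levels were 85.9 to 160 FPKM early and 57.7 to 140 FPKM late for endothelium, and 19.6 to 31.3 FPKM early and 20.4 to 55.1 FPKM late for the 10 leukocyte genes. None of these lists had a marker at 0 in every postnatal library.

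**Figure D4:**
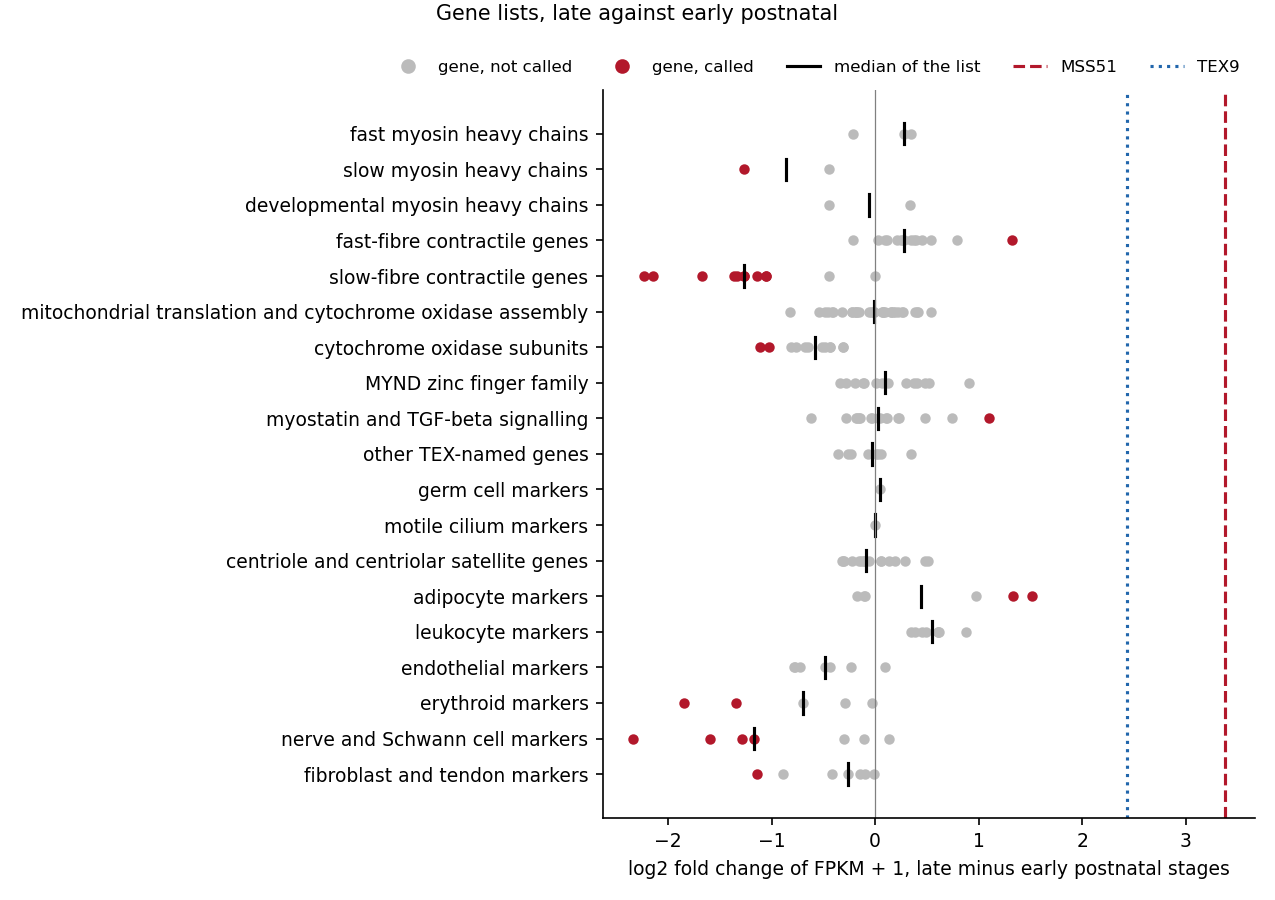
Log2 difference of FPKM + 1 between late and early postnatal stages for the tested genes of 19 lists (1 point a gene, red where called, black tick at the list's median). The dashed and dotted lines mark MSS51 (3.38) and TEX9 (2.44), which lie to the right of every listed gene, and slow-fibre genes lie to the left of 0 with a median of -1.27.

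MSS51 shares its place in the genome with PPP3CB, a catalytic subunit of the calcium-dependent phosphatase calcineurin. In the RefSeq annotation of assembly Sscrofa11.1, used here for names and neighbours only, all 2226 exonic bases of MSS51 lie within exons of PPP3CB on the same strand. The strand of a read therefore cannot separate them, and splice junctions were not compared. How the reads were split between both genes cannot be told from the table, so the level of each is uncertain. As listed, prenatal stage means were 4.33 to 5.997 FPKM for PPP3CB and at most 0.306 FPKM for MSS51, and these levels depend on that same unknown split.

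PPP3CB also rose after birth. Its libraries lay between 2.34 and 8.95 FPKM (median 7.12) in the early and between 9.66 and 22.7 FPKM (median 18.4) in the late postnatal group, with no overlap. PPP3CB rose by 1.23 (log2, SE 0.13, limma, adjusted p = 3.6e-11). Its r with MSS51 was 0.91 over the 12 stage means and -0.17 over the deviations within stages. With TEX9, whose place in the genome it does not share, r was 0.95 over the stage means and -0.02 over the deviations. At D180 the PPP3CB libraries held 19.6, 20.1 and 20.8 FPKM while those of MSS51 held 28.5, 39.7 and 14.6 FPKM. PPP3R1 and PPP3CA, the regulatory subunit and the other main catalytic subunit of calcineurin, were looked at after these values were seen. PPP3R1, which does not overlap MSS51, rose by 1.37 (SE 0.08, limma, adjusted p = 2.9e-21), with r = 0.90 to MSS51 and 0.94 to TEX9 over stage means, and PPP3CA differed by 0.36, below the fold limit.

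**Figure D5:**
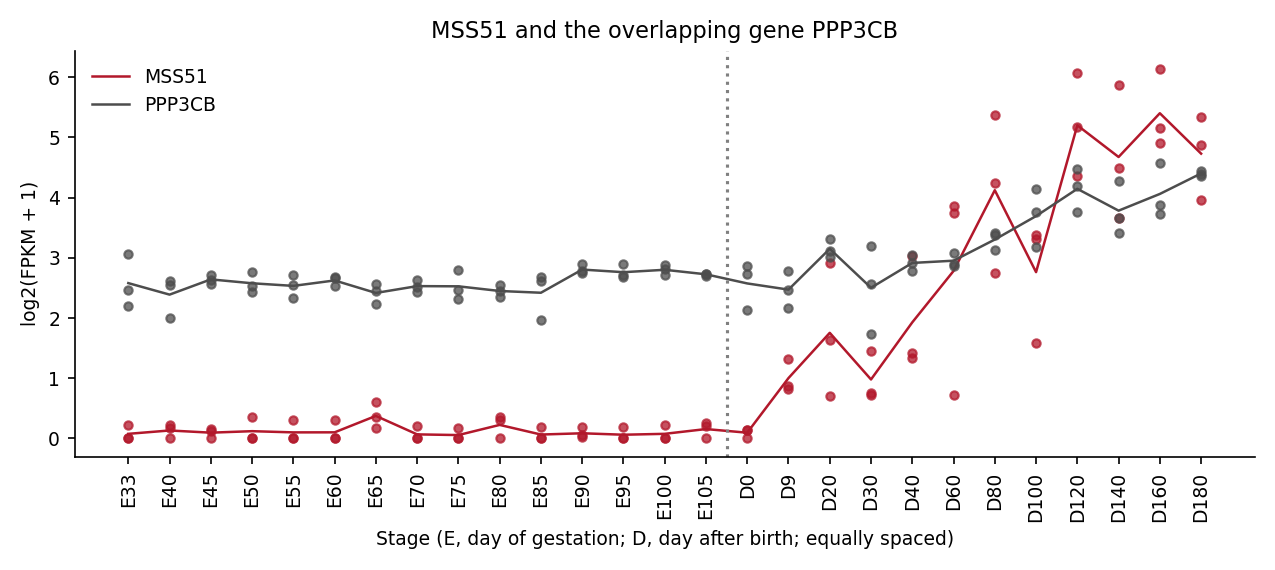
Level of MSS51 (red) and PPP3CB (grey) as log2(FPKM + 1) at each of 27 stages, equally spaced along the x axis. Points are single libraries, lines join stage means, and the dotted line marks birth. PPP3CB lies at prenatal stage means of 4.33 to 5.997 FPKM where MSS51 is at 0.306 FPKM or less, and both are highest from D120 on.

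None of the other named neighbours passed the fold limit. ANXA7, a calcium-dependent membrane-binding annexin on the same side of MSS51 as PPP3CB, differed by 0.76 (log2, SE 0.06). Its libraries lay between 26.3 and 37.0 FPKM in the early and between 39.3 and 70.7 FPKM in the late postnatal group. USP54, a gene of the ubiquitin-specific protease family on the other side, differed by -0.51 (SE 0.09). Near TEX9, MNS1, a gene needed for sperm flagella in mouse, shares 0 exonic bases with it and faces it from the opposite strand. MNS1 differed by -0.07 (SE 0.09, limma, adjusted p = 0.537), with 1.11 ± 0.442 FPKM early and 0.976 ± 0.1997 FPKM late (SD, n = 9 each). ZNF280D, RFX7 and NEDD4, the other genes near TEX9, differed by 0.34, 0.34 and 0.66. Over the 12 postnatal stage means, r with TEX9 was 0.64, 0.57 and 0.84 for these genes and -0.56 for MNS1.

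The genes whose course after birth was most like that of each member were ranked by r of the 12 postnatal stage means among 14203 genes, of which the median had r = -0.37 with MSS51 and -0.33 with TEX9. With MSS51 these were UBXN2A (r = 0.95), an adaptor of the ATPase VCP, ING1 (0.92), a chromatin reader, OPTN (0.92), an autophagy receptor, KBTBD8 (0.91), an adaptor of a cullin ubiquitin ligase, and TEX9 itself (0.91), at rank 5. In these, the deviations within stages had r of -0.24 to 0.13 with MSS51. OPTN went from 25.7 ± 8.22 to 67.4 ± 20.5 FPKM and UBXN2A from 6.34 ± 0.573 to 11.1 ± 1.81 FPKM between the early and the late group (SD, n = 9 each). The most opposed genes were PGLS (-0.98), an enzyme of the pentose phosphate pathway, LDAH (-0.97), a hydrolase of lipid droplets, and THAP9 (-0.97), a gene derived from a transposase.

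Leaving out loci with no gene symbol, the genes most like TEX9, at ranks 2, 3, 4, 6 and 7 of all genes, were ZNF706 (r = 0.97), a small zinc finger gene, KANSL1L (0.96), a gene related to a subunit of the NSL chromatin complex, BOLL (0.96), an RNA-binding protein of germ cells, GKAP1 (0.96), an anchor of cGMP-dependent kinase, and MINDY3 (0.96), a deubiquitinase. MSS51 came at rank 45. Within stages, r with TEX9 over the deviations was 0.79 for MINDY3, 0.77 for KANSL1L, 0.72 for BOLL, 0.64 for GKAP1 and 0.45 for ZNF706. The 95th percentile of all genes was 0.43. KANSL1L went from 21.6 ± 2.57 to 49.3 ± 16.5 FPKM between the early and the late group, and GKAP1 from 11.3 ± 3.08 to 29.8 ± 9.14 FPKM. BOLL stayed low in both groups, at 0.655 ± 0.161 and 1.83 ± 0.635 FPKM. The most opposed genes were TMEM63A (-0.97), an ion channel gene, NDUFV1 (-0.97), a subunit of respiratory complex I, and TDRD12 (-0.97), a gene of the germ cell piRNA pathway. NDUFV1 went from 102 ± 15.3 to 46.9 ± 8.88 FPKM.

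A measure of library composition moved with TEX9 within stages. The share of summed FPKM held by 82 ribosomal protein genes, looked at after the values were seen, had r = 0.71 with TEX9 and -0.25 with MSS51 over the deviations of the 36 libraries from their stage means. Over the stage means r was -0.18 and -0.37. That share was 12.6 to 16.7% (median 14.6) in the early and 11.6 to 15.5% (median 13.2) in the late postnatal libraries. Its part in the spread of TEX9 within stages was not tested.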

How the data were processed

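RNA of 81 libraries was measured. Per the labels' protocols, ribosomal RNA was depleted and libraries were strand-specific and paired-end. The authors deposited FPKM per gene and library, and per the submitters' processing notes the tools included Trimmomatic, StringTie 1.3.1 and HISAT2 2.0.4. Genome build and gene models are not given in the sources used, and neither coordinates nor sequences are printed. Of 28325 entries, 264 repeated an ID with identical values and were dropped. Symbols missing from the table came from RefSeq (Sscrofa11.1): 1547 by ID, and 22 list members by product name, added after the files were seen.

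Log2(FPKM + 1) was analysed with limma 3.58.1 in R 4.3.3 and Python 3.11.15. Genes at 1 FPKM or more in at least 3 libraries were tested: 14220 were kept and 13841 removed. The model held 27 stage means (54 residual degrees of freedom), and a variance trend. Tests were two-sided, and p-values were adjusted (Benjamini-Hochberg) over the genes tested. The fit was tested on simulated data. Low values were checked for steps of whole reads: of genes under 0.2 FPKM, the commonest bin of 0.05 log2 units held 2.77 to 5.81% of the ratios between libraries of a stage, too few to recover reads.

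The members and lists were chosen with earlier results of these data known. Named genes were both members, 4 myosins, the 2 nearest genes on each side, the 5 most and 3 least like each member among genes with a symbol, and up to 4 called genes a list. Some genes that this rule takes are not reported here. PPP3R1, PPP3CA, the ribosomal protein share and the alternative without D120 were added after values were seen.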

Additional observations from a re-analysis of the deposited data

Results flagged for a closer look

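The TEX9 level of E95 replicate 3, 9.02 FPKM, stood apart from the other 8 late fetal libraries: its gap to the nearest of them was 0.535 of the range of the group, above the 95% critical value of Dixon's test for 9 samples. Chance flags about 1 in 20 groups, and 8 groups of 9 libraries were looked at.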

How the results depend on the processing

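Depth is unknown, so the precision of values near 0, such as fetal MSS51, cannot be stated. The rank and lack of overlap of both members after birth follow from how they were chosen. The correlations with myosins rest on 12 stages and moved most. For MSS51 with MYH1, r was -0.048 without D0 and 0.54 without the 2 farthest stages. For MSS51 with MYH2 it was -0.61 with a pseudocount of 0.1, -0.47 after median-ratio scaling, -0.42 without D0, -0.21 without the 2 farthest stages and -0.52 without D120. For MSS51 with MYH4 it was 0.24 without the 2 farthest stages, and with MYH7 -0.43 after median-ratio scaling and -0.89 without D0. For TEX9 with MYH1 it was 0.088 after median-ratio scaling and 0.23 without the 2 farthest stages, and with MYH2 -0.46 without the 2 farthest stages. The cause was not tested.

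Leaving out 1 library at a time gave r from -0.67 to -0.50 for MSS51 with MYH2, from -0.74 to -0.42 for MSS51 with MYH7 and from -0.24 to 0.0015 for TEX9 with MYH1, and a fetal log2 difference of MSS51 from -0.029 to 0.022. That fetal difference was 0.0082 after median-ratio scaling and 0.0035 after quantile normalisation, and the D0 difference of MSS51 was 0.0085 after quantile normalisation, none past the test. The D0 difference of TEX9 was 0.090 and 0.056 after these scalings. The D9 difference of TEX9 was -0.58 after median-ratio scaling. That of MSS51 was 2.47 with a pseudocount of 0.1 and 0.85 with only the compared libraries in the fit, both at an adjusted p below 0.05, the second below the fold limit. At that adjusted p alone, 8777 and 9831 of 14220 genes tested passed in these fits. The fetal ratio of MSS51 to TEX9 was -0.50 with a pseudocount of 0.1.

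With a pseudocount of 0.1, 3726 genes were called between fetal stages, 3531 at D0, 3192 at D9 and 898 between postnatal stages, against 2188, 1729, 1312 and 324. After quantile normalisation 788 were called at D9. Median-ratio scaling changed the higher and lower calls from 863 and 1325 to 987 and 825 between fetal stages and from 395 and 1334 to 767 and 803 at D0.

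The replicate numbers did not pair the libraries: deviations of same-numbered libraries had a mean correlation of 0.0041 over 1053 pairs, and those with other numbers -0.0020 over 2106. With the replicate number as a block, the fetal comparison called 863 genes higher and 1325 lower, and the MSS51 difference at D9 stayed at 0.85 (limma, adjusted p = 0.140). The block changed no call of a member.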
